A study of Glycine max with 12 samples.

Results

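The genes described here are the 3 regulators that were overexpressed one at a time in this soybean (Glycine max) seed study, GmZF351, GmZF392 and GmNFYA, followed through all 12 libraries. They were chosen by locus and are 3 of the 47095 genes in the deposited count table. GmZF351 was read at Glyma.06G290100.Wm82.a4.v1, on the minus strand of chromosome 6 from 47496646 to 47498247, a locus of 1602 bases in 1 exon block. GmZF392 was read at Glyma.12G205700.Wm82.a4.v1, on the plus strand of chromosome 12 from 38059961 to 38061812, with 1852 bases in 1 exon block. GmNFYA was read at Glyma.02G303800.Wm82.a4.v1, on the minus strand of chromosome 2 from 49719199 to 49723036, with 6 exon blocks and an exon length of 1930 bases, and RefSeq names it NF-YA02. Positions are those of the annotation Gmax_508_Wm82.a4.v1, and other genes are named without the suffix.

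GmZF351 and GmZF392 are known as tandem CCCH zinc finger proteins, a plant family whose zinc-binding repeats contact nucleic acid and whose members act as regulators of gene expression. GmNFYA is an A subunit of nuclear factor Y, the complex in which an A subunit joins a dimer of a B and a C subunit and recognises the CCAAT motif in promoters. In seeds the best known partner of this kind is LEC1, a B-type subunit that drives embryo maturation and storage of oil and protein. All 3 regulators are known from soybean work on seed oil.

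The groups were the wild type, labelled Jack, and seeds of transgenic soybean overexpressing GmZF351, GmZF392 or GmNFYA, each with 3 libraries of total RNA at the stage labelled H3. What H3 stands for, plant age, and the promoter that drives each transgene are not given in the sources used here. All libraries of an overexpressor carry the same title code, so they may be from 1 transgenic line, whose other effects cannot be told apart from those of the gene. Nothing in the labels says that libraries came from separate plants, so a p-value reflects only how the sequenced libraries varied, which may be technical. Fragments of a transgene and of the endogenous gene at the same locus were counted together.

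The libraries held 17809547 to 22652420 counted fragments, and each regulator had 319 to 19025 fragments in every library, so all 3 passed the filter on low counts. Levels are given as CPM, counts scaled to a common library size with TMM factors. A gene was called changed at an adjusted p under 0.05 in edgeR's quasi-likelihood test over 34252 genes, and 95% confidence intervals are those of single genes. Against the wild type, 1 of the 3 regulators was called in the GmZF351 overexpressor, the overexpressed gene itself, beside 2.17% of all tested genes. In the GmZF392 overexpressor 2 of 3 were called, GmZF392 itself and GmZF351, beside 2.2%. In the GmNFYA overexpressor 1 of 3 was called, GmNFYA itself, beside 1.56%. In each comparison between overexpressors 2 of 3 were called, the overexpressed genes themselves, beside 0.4% (GmZF392 against GmZF351), 1.1% (GmNFYA against GmZF351) and 1.06% (GmNFYA against GmZF392) of all tested genes.

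Each regulator was highest in the genotype named for it. GmZF351 stood at 895, 904 and 1009 CPM in the 3 libraries of the GmZF351 overexpressor and at 20.5, 17.9 and 17.6 CPM in the wild type. The level was 50.1-fold higher (log2 5.65, 95% interval of the fold 39.3 to 63.9, adjusted p = 4.13e-10). No library came near the other group, and the overexpressor's libraries lay within 1.13-fold of each other.

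GmZF392 stood at 666, 734 and 545 CPM in its own overexpressor, against 72.0, 70.7 and 68.3 CPM in the wild type. The overexpressor's libraries spread over 1.35-fold and all lay far above the wild type. The difference was 3.20 on the log2 scale (95% interval 2.84 to 3.57, adjusted p = 2.39e-07). No other gene of the deposited annotation overlaps the GmZF392 locus. RefSeq, however, draws LOC100786505 from 38059709 to 38080047, over the whole of that locus. Whether fragments of LOC100786505 add to the GmZF392 count was not tested.

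GmNFYA stood at 268, 328 and 330 CPM in its own overexpressor, against 43.4, 40.6 and 41.6 CPM in the wild type. The first library was the lowest of the overexpressor and still well above every wild-type library. The difference was 2.88 on the log2 scale (95% interval 2.57 to 3.19, adjusted p = 1.06e-07). The GmNFYA locus overlaps the plus-strand gene Glyma.02G303700 by 195 bases, and counting with no stated strand option cannot separate fragments in that stretch. Glyma.02G303700 itself stood at 8.30, 8.15 and 8.63 CPM in the GmNFYA overexpressor and at 9.96, 6.98 and 10.1 CPM in the wild type, with a log2 difference of -0.11 (adjusted p = 0.837).

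**Figure D1:**
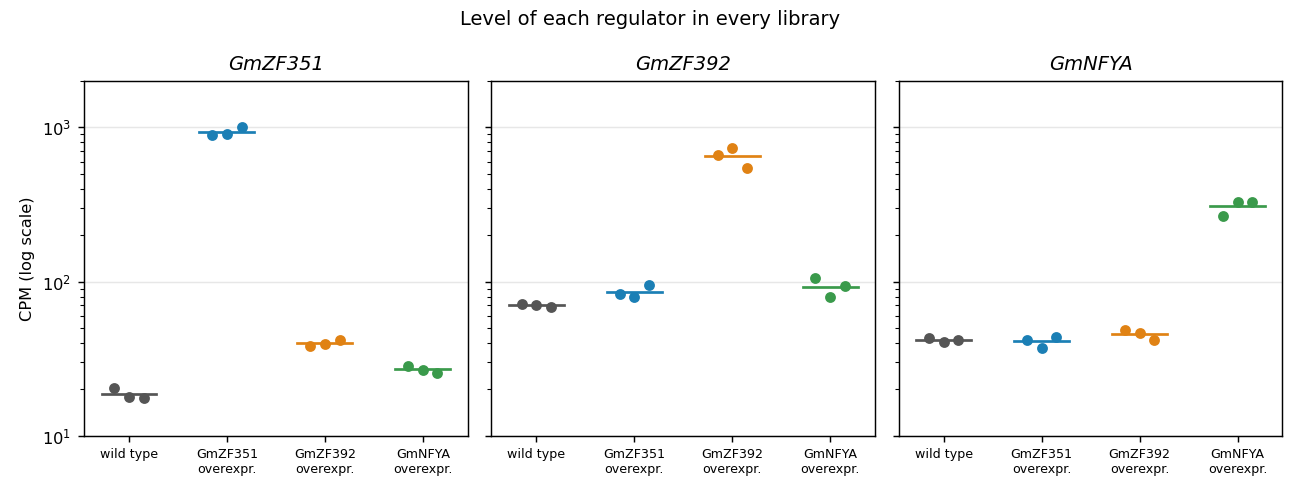
CPM of each regulator (log axis) in every library, by genotype; points are libraries and bars are means of 3. Each regulator is highest in its own overexpressor, and GmZF351 stands at 38.3 to 42.0 CPM in the GmZF392 overexpressor, above all wild-type libraries (17.6 to 20.5 CPM).

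GmZF351 was the only regulator of the 3 that was called changed outside its own overexpressor. In the GmZF392 overexpressor it stood at 38.3, 39.3 and 42.0 CPM, above every wild-type library, a separation seen for 9.34% of all tested genes in that direction. It rose 2.13-fold there (log2 1.09, 95% interval 0.80 to 1.39, adjusted p = 4.34e-04), and the call held in all 18 alternatives tried. The mean increase of 21.2 CPM equals 3.67% of the 578 CPM by which GmZF392 itself was higher in those libraries. Within the GmZF392 overexpressor the library with the most GmZF351 was the one with the least GmZF392. Over these 3 libraries GmZF351 varied by 4.83% (CV), near the counting error of 3.67% in the lowest library, so their order carries little.

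In the GmNFYA overexpressor GmZF351 stood at 28.3, 26.8 and 25.6 CPM. These libraries lay above all wild-type libraries and below all libraries of the GmZF392 overexpressor. Against the wild type the log2 difference was 0.53 (95% interval 0.24 to 0.82, adjusted p = 0.0836), which did not pass the threshold. Libraries lay higher without overlap for 11.1% of all tested genes in that comparison. The adjusted p ran from 0.000715 to 0.313 over the 18 alternatives, and the call was made in 2 of them, with DESeq2's Wald test (adjusted p = 0.000715) and with exon-length offsets (adjusted p = 0.0118).

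Between the GmNFYA and GmZF392 overexpressors GmZF351 differed by -0.57 on the log2 scale (95% interval -0.86 to -0.27, adjusted p = 0.0755). That also missed the threshold (0.000139 to 0.344 over 18 alternatives, called in 2), and libraries lay lower without overlap for 9.51% of tested genes. So the order of GmZF351 was its own overexpressor, then the GmZF392 overexpressor, the GmNFYA overexpressor and the wild type, and neither neighbouring step below the first passed the test, while the GmZF392 overexpressor and the wild type did differ.

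Most genes of a list of embryo and storage markers rose in each overexpressor. The mean of GmZF351 was 936 CPM in its own overexpressor and 39.9 CPM in the GmZF392 overexpressor. All 17 genes of that marker list were tested, 11 rose in the GmZF351 overexpressor (beside 1.13% of all tested genes), 11 in the GmZF392 overexpressor (beside 1.67%) and 9 in the GmNFYA overexpressor (beside 0.966%), and none was at 0 counts. The embryo regulators LEC1-A and LEC1-B, also on the list, were called in no overexpressor. In the GmZF351, GmZF392 and GmNFYA overexpressors their log2 differences were 0.13, 0.01 and 0.05 (LEC1-A) and 0.12, 0.14 and 0.23 (LEC1-B). The summed CPM of the list ran from 4807 to 6530 in the wild type, 10340 to 12960 in the GmZF351 overexpressor, 11400 to 13060 in the GmZF392 overexpressor and 8077 to 10090 in the GmNFYA overexpressor. The summed CPM of 4 seed coat markers ran from 596 to 735 in the wild type, 379 to 448 in the GmZF351 overexpressor, 472 to 525 in the GmZF392 overexpressor and 422 to 447 in the GmNFYA overexpressor. Of the 3 tested, 2, 2 and 1 were called lower in these overexpressors, beside 2.17%, 2.2% and 1.56% of all tested genes in either direction. Of 4 green tissue markers 0, 0 and 1 were called, the last lower in the GmNFYA overexpressor. The part of these marker differences in the level of GmZF351 was not tested. In these whole-seed RNA samples, fewer cells of a type and less RNA per cell cannot be told apart.

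**Figure D2:**
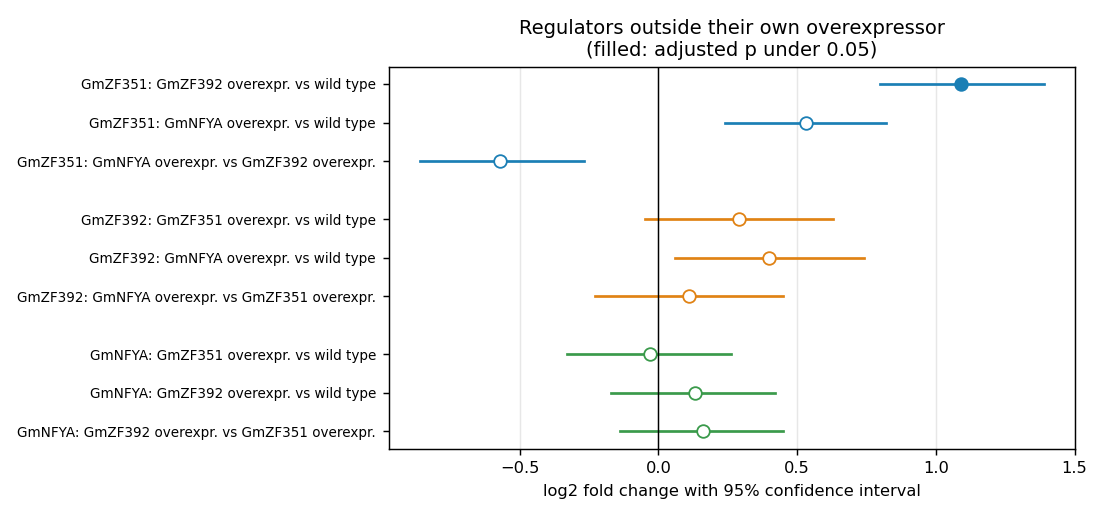
Log2 fold change with its 95% confidence interval for each regulator in comparisons that leave out its own overexpressor; filled points have an adjusted p under 0.05. The only filled point is GmZF351 in the GmZF392 overexpressor against the wild type, at 1.09.

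GmZF392 was not called changed outside its own overexpressor. In the GmZF351 overexpressor it stood at 83.3, 79.4 and 95.2 CPM, and in the GmNFYA overexpressor at 105, 79.5 and 93.3 CPM. Every one of these libraries lay above the wild type's, which reached 72.0 CPM. Against the wild type the log2 difference was 0.29 in the GmZF351 overexpressor (95% interval -0.05 to 0.63, adjusted p = 0.53), where 7.83% of tested genes lay higher without overlap. It was 0.40 in the GmNFYA overexpressor (95% interval 0.06 to 0.74, adjusted p = 0.335), where 11.1% of tested genes lay higher without overlap. No alternative of the 18 tried called either difference. Between these overexpressors the libraries overlapped and the difference was 0.11 (95% interval -0.23 to 0.45, adjusted p = 0.791).

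GmNFYA was not called changed in either zinc finger overexpressor. It stood at 41.6, 37.2 and 44.0 CPM in the GmZF351 overexpressor and at 48.8, 46.4 and 41.7 CPM in the GmZF392 overexpressor. Libraries of all 3 genotypes overlapped. The log2 difference from the wild type was -0.03 in the GmZF351 overexpressor (95% interval -0.33 to 0.26, adjusted p = 0.969) and 0.13 in the GmZF392 overexpressor (95% interval -0.17 to 0.42, adjusted p = 0.789).

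Levels of different genes were compared per kilobase of exon. In the wild type GmZF392 stood highest at 38.0 ± 1.01 CPM per kilobase (SD, n = 3), followed by GmNFYA at 21.7 ± 0.731 and GmZF351 at 11.7 ± 0.999. This order held in each of the 3 wild-type libraries, with GmZF392 3.27 ± 0.206 times the level of GmZF351 per kilobase and 1.75 ± 0.0550 times that of GmNFYA (SD, n = 3). Ranked per kilobase among the 34252 tested genes, GmZF392 was number 3058, GmNFYA number 5432 and GmZF351 number 9912.

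In their own overexpressors the order was reversed between the zinc finger genes. GmZF351 reached 584 ± 39.4 CPM per kilobase (rank 64), GmZF392 350 ± 51.7 (rank 152) and GmNFYA 160 ± 18.2 (rank 591). The lowest of the regulators in the wild type was therefore the highest in its own overexpressor. In the GmZF392 overexpressor GmZF351 (24.9 ± 1.20 CPM per kilobase) and GmNFYA (23.7 ± 1.85) stood at about the same level, with GmNFYA the higher in 1 of 3 libraries. For GmNFYA in its own overexpressor, TPM, which divide by the summed per-length level of each library, spread less, at 263 ± 4.49 (SD, n = 3), than CPM, at 308 ± 35.1. The zinc finger genes went the other way in their own overexpressors. TPM were 882 ± 153 for GmZF351 and 582 ± 137 for GmZF392, and CPM 936 ± 63.1 and 648 ± 95.7.

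**Figure D3:**
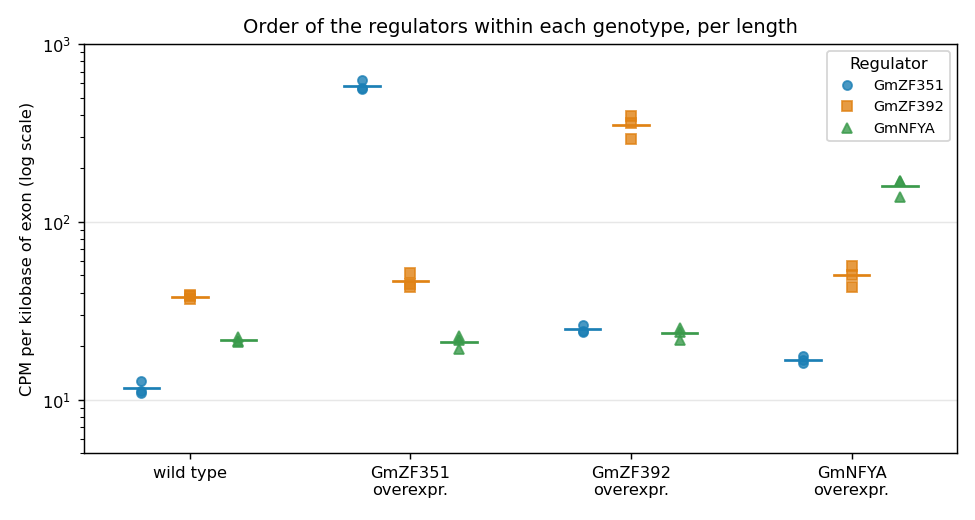
CPM per kilobase of exon (log axis) of the 3 regulators within each genotype; points are libraries and bars are means of 3. In the wild type the order is GmZF392, GmNFYA, GmZF351, and in the GmZF392 overexpressor GmZF351 (24.9) and GmNFYA (23.7) meet.

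GmNFYA is 1 of 19 genes that RefSeq names NF-YA, of which 17 were tested. In the wild type it took 9.52 ± 0.345% of their summed level per kilobase (SD, n = 3) and ranked number 5, and NF-YA09 was highest at 43.1 CPM per kilobase. In the GmNFYA overexpressor it took 44.1 ± 2.40% and ranked number 1. The other 18 genes summed to 206 ± 11.5 CPM per kilobase in the wild type and to 202 ± 9.02 in the GmNFYA overexpressor, within the spread of the libraries. NF-YA09 itself differed from the wild type by -0.18 on the log2 scale there (adjusted p = 0.646).

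None of the NF-Y subunit genes other than GmNFYA was called in any overexpressor. Of all tested genes 2.17%, 2.2% and 1.56% were called in the GmZF351, GmZF392 and GmNFYA overexpressors. A count of 0 in a short list is near such shares. The list held 30 genes, of A, B and C type, and 25 were tested; their median log2 difference was 0.04 in the GmZF351 overexpressor, 0.06 in the GmZF392 overexpressor and -0.10 in the GmNFYA overexpressor, beside 0.007, -0.006 and -0.009 over all tested genes. At an unadjusted p under 0.05 there were 2, 0 and 0 of them, and the share of all tested genes at that cut was not taken. DESeq2's Wald test called 1 gene, NF-YC13, in the GmZF351 overexpressor (log2 -0.38, adjusted p = 0.0351). The shares above are those of the main edgeR fit, which called 744 genes in that overexpressor, while alternatives called up to 1335. LEC1-B, a B-type subunit, had the highest level of the list per kilobase in the wild type at 357 CPM per kilobase, and LEC1-A stood at 167.

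**Figure D4:**
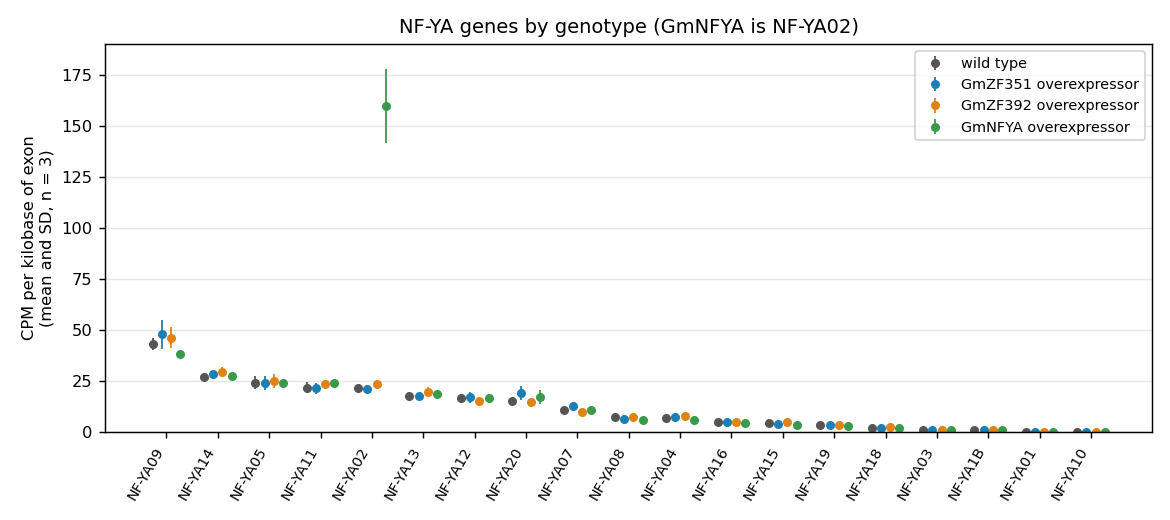
Level of each NF-YA gene in CPM per kilobase of exon, by genotype; points are means and bars are SD of 3 libraries. NF-YA02 (GmNFYA) stands at 160 in its own overexpressor. None of the other tested members was called against the wild type, where 1.56% to 2.2% of all tested genes were called.

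The 5 genes on each side of each regulator's locus were followed as a check on the chromosomal surroundings. Of these 30 neighbours 25 were tested, and in the overexpressor of the locus's own regulator edgeR called none: 0 of 9 around GmZF351, 0 of 7 around GmZF392 and 0 of 9 around GmNFYA. The shares called of all tested genes were 2.17%, 2.2% and 1.56% in these overexpressors. DESeq2's Wald test and edgeR with exon-length offsets each called Glyma.06G290000, the gene next to GmZF351, in the GmZF351 overexpressor (adjusted p = 0.0281 and 0.0357). Alternatives called up to 1335 genes in all there (exon-length offsets), against 744 in the main fit that gave the 2.17%. In edgeR's unadjusted p under 0.05, 3 of the 25 neighbours of all loci passed in the GmZF351 overexpressor, 5 in the GmZF392 overexpressor and 1 in the GmNFYA overexpressor. The share of all tested genes at that cut was not taken, so these counts cannot be set against it.

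In the comparisons with the wild type edgeR called 1 neighbour in the GmZF392 overexpressor (beside 1.67% of all tested genes) and 1 in the GmNFYA overexpressor (beside 0.966%). Each time it was Glyma.06G290000, on the plus strand with a gap of 18035 bases to GmZF351. It stood at 4.91, 10.3 and 8.99 CPM in the wild type, 22.9, 18.6 and 20.8 CPM in the GmZF392 overexpressor, and 13.4, 15.9 and 17.6 CPM in the GmNFYA overexpressor. All libraries of both overexpressors lay above all wild-type libraries, as they did for 9.34% (GmZF392) and 11.1% (GmNFYA) of all tested genes. It rose in the GmZF392 overexpressor (log2 1.36, 95% interval 0.89 to 1.83, adjusted p = 0.00329), a call that held in all 12 alternatives. It also rose in the GmNFYA overexpressor (log2 0.95, adjusted p = 0.0477), but this call ended without wild-type library 1 (0.0859) or 3 (0.103), without GmNFYA overexpressor library 1 (0.0548), 2 (0.159) or 3 (0.193), or with only the compared genotypes fitted (0.121). Through the shared fit it also ended without GmZF351 overexpressor library 1 or 3 or any GmZF392 overexpressor library. In the GmZF351 overexpressor it stood at 12.8, 13.9 and 15.1 CPM, again above all wild-type libraries, a separation seen for 7.83% of all tested genes. The log2 difference there was 0.78 (adjusted p = 0.102, called in 2 of 12 alternatives, with 0.0281 to 0.295 over them). GmZF351 and this neighbour thus both rose in the GmZF392 overexpressor.

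**Figure D5:**
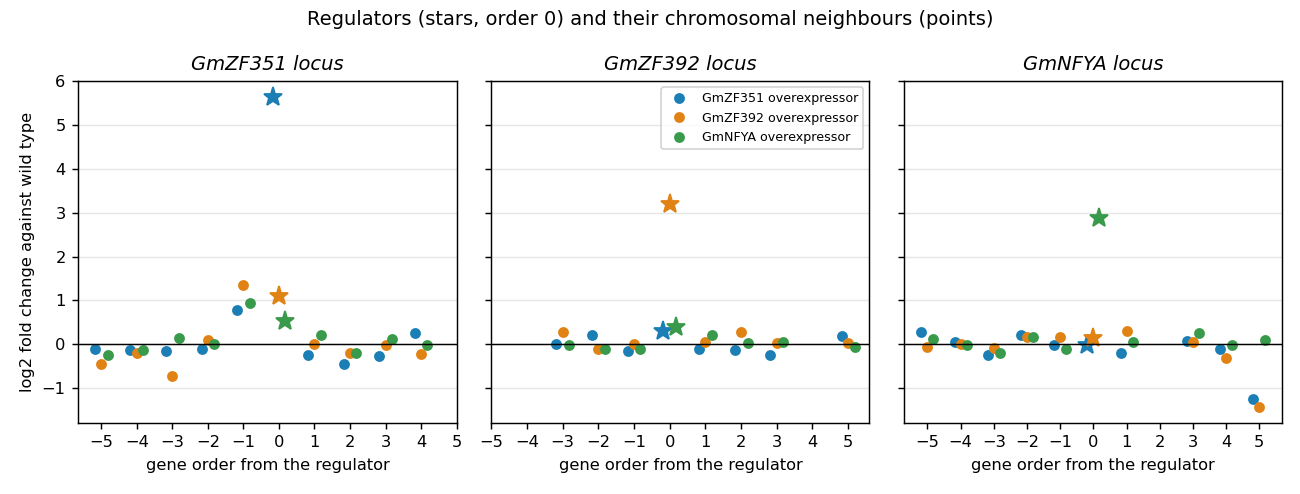
Log2 fold change against the wild type of each regulator (stars) and of the tested genes among its 5 neighbours on each side (points), by gene order, in the 3 overexpressors. At the GmZF351 locus the gene at order -1, Glyma.06G290000, stands apart, at 1.36 in the GmZF392 overexpressor, and the GmNFYA locus holds 1 neighbour down to -1.44 that was not called.

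Among 11 other maturation regulator genes, all tested, ABI5, a bZIP factor of abscisic acid response, was the only one edgeR called, 1 of 11 in the GmZF392 overexpressor (beside 1.67% of all tested genes) and in the GmNFYA overexpressor (beside 0.966%). It stood at 5.30, 6.48 and 8.11 CPM in the wild type, 12.2, 13.5 and 13.3 CPM in the GmZF392 overexpressor and 10.8, 13.1 and 13.3 CPM in the GmNFYA overexpressor. It rose in the GmZF392 overexpressor (log2 0.97, adjusted p = 0.019) and in the GmNFYA overexpressor (log2 0.91, adjusted p = 0.038). Without wild-type library 1 or 2 both calls ended (adjusted p = 0.0863 and 0.0921 in the GmZF392 overexpressor, 0.167 and 0.159 in the GmNFYA overexpressor). The first call also ended without GmZF392 overexpressor library 1, 2 or 3 (0.0522, 0.0746 and 0.0543), and the second without GmNFYA overexpressor library 2 or 3 (0.153 and 0.154) or, through the shared fit, GmZF351 overexpressor library 3 or GmZF392 overexpressor library 1 or 2. In the GmZF351 overexpressor the log2 difference was 0.62 (adjusted p = 0.176). LEC1, ABI3 and WRI1 genes of the list were not called. The list's medians were 0.04, -0.02 and 0.14 in the GmZF351, GmZF392 and GmNFYA overexpressors.

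Of 27 oil pathway genes 25 were tested, and 3 rose in the GmZF351 overexpressor (beside 1.13% of all tested genes), 2 in the GmZF392 overexpressor (beside 1.67%) and 0 by edgeR in the GmNFYA overexpressor (beside 0.966%). In the last, 8 had an unadjusted p under 0.05, a cut whose share over all tested genes was not taken. DESeq2's Wald test called 2 there, ACCC-2 higher (log2 0.5) and SACPD-C lower (log2 -1.11), beside 1012 genes in all. The medians of the tested oil pathway genes were 0.06, 0.12 and 0.16 on the log2 scale. FAD2-1B, a seed oleate desaturase, rose from 174, 190 and 192 CPM in the wild type to 286, 304 and 347 CPM in the GmZF351 overexpressor (log2 0.75, adjusted p = 0.00851) and to 354, 391 and 382 CPM in the GmZF392 overexpressor (log2 1.02, adjusted p = 0.00067). The first of these calls ended without GmZF351 overexpressor library 3 (0.053) and with only the compared genotypes fitted (0.0964). FAD2-1A, its close relative, rose in the GmZF392 overexpressor (log2 1.17, adjusted p = 0.000917) and had a log2 difference of 0.46 in the GmZF351 overexpressor (adjusted p = 0.22). P91 and P89, oleosins that coat oil bodies, rose in the GmZF351 overexpressor by log2 1.42 and 1.27 (adjusted p = 0.0357 and 0.0459). Those calls held in 6 and 5 of 12 alternatives. In the GmZF392 overexpressor the levels of P91 and P89 were 2.004-fold and 2.15-fold those of the wild type (adjusted p = 0.172 and 0.0908), differences each called in 3 of 12 alternatives, among them DESeq2's Wald test (0.0434 and 0.00844) and exon-length offsets (0.0406 and 0.0366). The P91 call ended without any wild-type library or GmZF351 overexpressor library 2 or 3 (adjusted p = 0.0593 to 0.101), and the P89 call without any library of either group (0.0555 to 0.130). Libraries of the other genotypes share the fit, and leaving out GmZF392 overexpressor library 1 or 2 or GmNFYA overexpressor library 2 ended both calls, as did GmZF392 overexpressor library 3 or GmNFYA overexpressor library 3 for P89. FAD2-1A and FAD2-1B are near copies of each other, as are P91 and P89. Fragments that fit both copies may have been left out of both counts or given to the wrong copy.

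The genes most alike to each regulator were found by the root mean square distance between log2 CPM profiles, each centred on its own mean. Over the 9 libraries outside its own overexpressor, GmZF351, whose own spread was 0.45 log2 units, was closest to Glyma.08G010800 (distance 0.06), Glyma.09G217700 (0.10) and LE1, the seed lectin (0.10), which is also a member of the embryo and storage marker list. LE1 stood at 393 ± 16.5 CPM in the wild type, 832 ± 12.9 CPM in the GmZF392 overexpressor and 604 ± 31.8 CPM in the GmNFYA overexpressor (SD, n = 3). Glyma.08G010800 stood at 21.7, 14.7 and 10.2 CPM on average in the GmZF392 overexpressor, the GmNFYA overexpressor and the wild type. These genes were picked for this likeness, so their order over these libraries is no separate result.

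Over all 12 libraries the own spread of GmZF351 was 2.24, and the nearest genes were Glyma.08G230500 (1.14), Glyma.17G119000 (1.16) and PIP1-8, an aquaporin (1.42). Their highest genotype means, all in the GmZF351 overexpressor, were 1.37, 0.756 and 2.24 CPM. GmZF392 (own spread 1.30) was closest to Glyma.05G136100 (0.28), Glyma.05G123900 (0.31) and Glyma.15G071300 (0.32). The first pair stayed under 1 CPM on average in every genotype. Glyma.15G071300 stood at 41.3, 39.0 and 53.3 CPM in the GmZF392 overexpressor against 6.38, 4.03 and 5.13 CPM in the wild type (log2 3.10, adjusted p = 1.72e-06), and its libraries did not overlap with those of any other genotype. With a prior count of 0.5 only 1 of these 3 genes stayed among the closest to GmZF392. The genes named for both regulators were picked for likeness over the same libraries. Their rise in the regulator's own overexpressor, its adjusted p and the lack of overlap are therefore no separate result.

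GmNFYA (own spread 1.24) was closest to Glyma.20G036300 (0.41), Glyma.01G073200 (0.48) and Glyma.17G011600 (0.49). These genes too were picked for likeness, so their rise in the GmNFYA overexpressor and its adjusted p are no separate result. The first reached 1.70 CPM on average in the GmNFYA overexpressor, and Glyma.01G073200 reached 0.714 CPM there, with 0 counts in every wild-type library and an adjusted p of 0.06. Glyma.17G011600 stood at 12.1, 10.7 and 11.6 CPM in the GmNFYA overexpressor and at 4.22, 2.72 and 3.42 CPM in the wild type (log2 1.74, adjusted p = 0.000188). It fell in the GmZF351 overexpressor (log2 -1.10, adjusted p = 0.0147), a call that ended without wild-type library 1 (0.0643) or 3 (0.0512), without GmZF351 overexpressor library 1 (0.0619) or 2 (0.0607), and with only the compared genotypes fitted (0.135).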

How the data were processed

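Per the file headers, the authors made the deposited counts, raw fragments per gene, with featureCounts 2.0.1 (paired fragments, exon features summed by gene, annotation Gmax_508_Wm82.a4.v1), with no strand or multimapping option recorded. Per the submitters' processing notes HISAT2 and DESeq2 were also used; versions are not given in the sources used here. Exon lengths are other values of the same deposited table. RefSeq names (Glycine_max_v4.0) were paired by span overlap of at least 50% of the union, for 38292 genes (81.3%). The GmZF351 and GmZF392 loci rest on knowledge of the study.

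Tests used edgeR 4.0.16 under R 4.3.3 (TMM factors, filterByExpr with minimum count 10 and total 15, robust quasi-likelihood F-test, all 12 libraries in 1 fit, Benjamini-Hochberg threshold 0.05), after a check on simulated data. An exact test of 3 against 3 libraries cannot go below p = 0.1. A count of 0 allows up to 3 counts, counting error only. Alternatives included DESeq2 1.42.0. Log2 CPM profiles used a prior count of 2. Named genes are the regulators, the 3 closest profiles, and up to 6 called members with the largest change per list. Members and lists were chosen with earlier results of these data known.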

Additional observations from a re-analysis of the deposited data

How the results depend on the processing

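Of 216 alternative values for the 18 regulator comparisons (12 each, leaving out libraries of the compared genotypes only), 212 kept their direction and side of the threshold, 4 passed it in addition and 0 reversed. Those 4 were GmZF351 in the GmNFYA overexpressor against the wild type (log2 0.53 with DESeq2's Wald test, 0.59 with exon-length offsets) and against the GmZF392 overexpressor (-0.57 and -0.54). Calls over the comparisons with the wild type came to 0 for NF-Y subunit genes and 1 with DESeq2's Wald test or exon-length offsets. For maturation genes they came to 2 (0 to 2 leaving out a library). For oil pathway genes they came to 5, against 10 with DESeq2's Wald test, 2 with only the compared genotypes, 9 with exon-length offsets and 2 to 5 leaving out a library. For neighbours they came to 2, against 3 with DESeq2's Wald test or exon-length offsets, 1 with only the compared genotypes and 1 to 2 leaving out a library. The cause was not tested.

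The replicate numbers gave no sign of pairing the libraries. Same-numbered pairs had a median correlation of -0.016 (7 of 18 over 0.1), and the 36 other pairs one of -0.035. With the replicate block, maturation calls came to 1, because ABI5 in the GmNFYA overexpressor missed the threshold (adjusted p = 0.0505), P91 and P89 were called in the GmZF392 overexpressor (0.0401 and 0.0396), the log2 value of GmZF351 in the GmZF392 overexpressor stayed called, and genes called against the wild type came to 645, 659 and 510 in the GmZF351, GmZF392 and GmNFYA overexpressors, against 744, 752 and 536.

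Over all alternatives those counts ran from 368 to 1335, 448 to 1194 and 300 to 1012. Between overexpressors 137 (GmZF392 against GmZF351), 376 (GmNFYA against GmZF351) and 364 (GmNFYA against GmZF392) genes were called, with ranges of 64 to 359, 123 to 954 and 198 to 705. Levels per kilobase relative to the wild type moved by less than their spread when given as TPM. The list of close homologs was not run, because no protein sequences were used here. The lowest regulator count, 319 fragments, has a counting error of 5.60% (CV).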
